A study of Arabidopsis thaliana with 12 samples.

Results

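Transcripts of 5 little-characterised *Arabidopsis thaliana* genes, AT3G56290, AT2G46630, AT1G02020, AT3G09050 and AT1G62250, were lower in plants back in growth light after a high-light treatment than in plants that had stayed in growth light. They are 5 of 3438 measured features. They were chosen from the comparison described here, as little-characterised genes among the 10 genes with a probe of their own that passed limma's test for a lower level, so their falls are a description and not a test result. The control group was wild type of ecotype Columbia 0 grown at 80 µE, 6 samples. The recovery group was the same wild type exposed to 1000 µE for 1 h and returned to 80 µE, also 6 samples. The titles and descriptions give 2 h back at 80 µE and the source names 1 h. Total RNA of whole samples was read, with no transgene or mutation in either group, and the labels do not name the organ.

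High light drives photosynthesis beyond what carbon fixation can use, and leaf cells answer by dissipating energy, repairing photosystems and adjusting many nuclear transcripts, among them many that code for chloroplast proteins. On return to growth light part of this response relaxes. A transcript that is low in recovery may have fallen in the high light or afterwards, and samples of the high-light hour itself are not analysed here. The reference gene table (RefSeq, assembly TAIR10.1) lists all 5 genes as protein-coding, with no symbol beyond the locus number. It lists 1 RefSeq transcript each for AT3G56290, AT2G46630 and AT3G09050 and 3 each for AT1G02020 and AT1G62250. No molecular role is assigned to any of them here. Each was read by 1 probe that the platform annotation assigns to no other gene.

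In recovery plants the level of AT3G56290 was 28.1% of that in control plants, that of AT1G02020 29.0%, that of AT2G46630 30.0%, that of AT3G09050 49.9% and that of AT1G62250 65.8%. Levels are given as log2 intensity after quantile normalisation, which gives all samples the same distribution of values. A floor was set at -5.07, and 0 of the 60 values of these genes lay at it. By limma over all 12 samples, 5 of 5 had an adjusted p under 0.05, as 1.83% of all features did in the downward direction. That fit has no term for the likeness of samples with equal or neighbouring numbers. With the replicate number as a block 3 of 5 passed, and with pairs of neighbouring numbers as a random block or averaged 0 of 5 did. The random-block and averaged fits do not match numbers across the groups, and averaging leaves 3 values per group. For each of the 5 every recovery sample lay below every control sample, as for 2.73% of all features. All 5 were lower for each of the 6 replicate numbers and in each of the 3 pairs, as were 9.16% and 17.4% of all features. These counts follow from how the genes were chosen. In bulk RNA a fall may stand for fewer cells of a type or less RNA per cell, which cannot be told apart. The titles give 0 h for control and 2 h for recovery, so sampling time and light treatment cannot be told apart either.

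**Figure D1:**
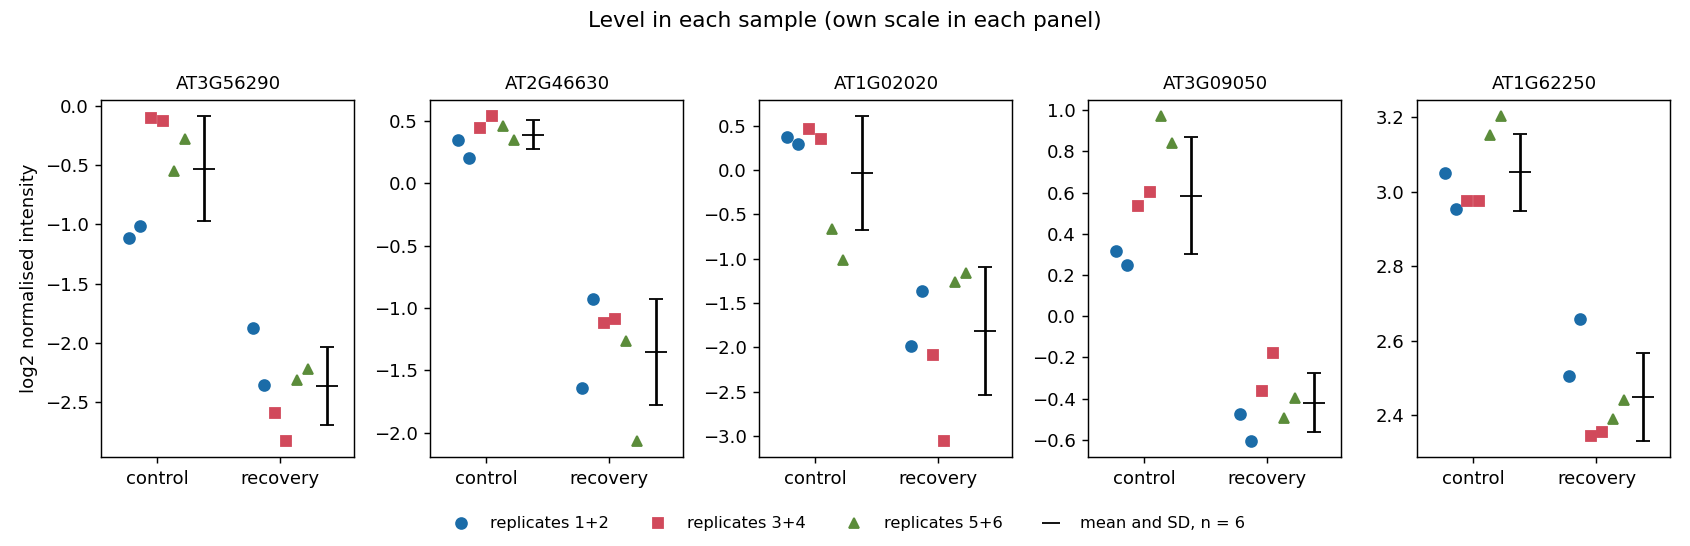
Log2 normalised intensity of each of the 5 genes in the 6 control and 6 recovery samples, with an own vertical scale per gene. Points are samples, shaped and coloured by pair of replicate numbers, and bars are the group mean and SD. In all 5 panels the recovery samples lie below the control samples, by 0.14 between the nearest samples of AT1G02020 and by 1.13 for AT2G46630.

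Within a group, samples with neighbouring numbers (1 with 2, 3 with 4, 5 with 6) were alike. Their log2 values correlated at 0.853 to 0.942, against 0.683 to 0.824 for samples of different pairs. Nothing in the labels says that the samples are separate plants or cultures, so the p-values given here describe a spread that may be technical. Recovery 3 and 4 stood apart. Over all features they correlated at 0.778 to 0.842 with the control samples of other numbers and at 0.754 to 0.774 with the other recovery samples. In all, 104 features (3.03%) passed, 63 lower and 41 higher in recovery. On the deposited scale 30 were lower and 79 higher, with the median log2 difference of all features at 0.43. After median centring 51 were lower and 14 higher, with that median at -0.13. Without replicates 3 and 4 of both groups 416 features passed, 213 lower and 203 higher, and without recovery 5 alone 42 did. With pairs as a random block 3 passed. Of 7 markers of photosynthetic tissue 4 had a probe of their own, none at the floor in any sample. LHB1B2, a light-harvesting protein of photosystem II, had a control mean of 3.95 and a recovery mean of 4.19. The other measured markers were PSAN (2.80 and 2.83), PRK (1.08 and 0.42) and SBPASE (-1.22 and -1.15). The lowest SBPASE sample, at -4.60, was close to the floor of -5.07. None of the 10 root, pollen and seed markers had a probe of its own, so other organs were not checked.

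AT3G56290 had control values from -1.12 to -0.10 with a median of -0.42, and recovery values from -2.83 to -1.87 with a median of -2.34. The means were -0.53 ± 0.44 (SD, n = 6) and -2.36 ± 0.33 (SD, n = 6), a log2 difference of -1.83 with a standard error of 0.24. Its controls were uneven: control 1 and 2 (-1.12 and -1.01) lay below the other controls (-0.55 to -0.10), while recovery 3 and 4 (-2.59 and -2.83) were the lowest samples of all. The fall was therefore deepest in samples 3 and 4, at -2.60, a 6.05-fold difference, followed by -1.85 in samples 5 and 6 and -1.05 in samples 1 and 2. The 2 samples of a pair differed by 0.49 at most, in recovery 1 and 2. Without samples 3 and 4 of both groups the log2 difference was -1.45. On the deposited scale it was -1.48, and the limma call was lost (adjusted p = 0.0824). In deposited intensity the highest recovery sample, at 0.429, was close to the lowest control sample, at 0.451.

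AT2G46630 was the most even of the 5 in control plants relative to its fall. Control values ran from 0.20 to 0.53 with a median of 0.39, and recovery values from -2.07 to -0.93 with a median of -1.19. The means were 0.39 ± 0.12 and -1.35 ± 0.43 (SD, n = 6 each), a log2 difference of -1.74 with a standard error of 0.21. The spread was larger among recovery samples, where recovery 6 (-2.07) and recovery 1 (-1.64) were low and their partners, recovery 5 (-1.26) and recovery 2 (-0.93), were higher. By pair, numbers 1 and 2 gave a difference of -1.56, numbers 3 and 4 one of -1.59 and numbers 5 and 6 one of -2.06. A fall of 2.95 to 4.18-fold was thus present in every pair. The limma call held under the replicate block (adjusted p = 0.0177) and was lost with pairs as a random block (0.0865). Of all features it had the second smallest p, at rank 2, which is a property of its selection.

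AT1G02020 showed the least even fall. Control 1 to 4 lay between 0.30 and 0.47, whereas control 5 and 6 were at -0.67 and -1.02. Recovery values ran from -3.06 in recovery 4 to -1.16 in recovery 6, with a median of -1.67. The means were -0.03 ± 0.64 and -1.82 ± 0.72 (SD, n = 6 each), a log2 difference of -1.78 with a standard error of 0.38. The lowest control and the highest recovery sample, both number 6, were 0.14 apart. By pair, numbers 1 and 2 gave a difference of -2.01, numbers 3 and 4 one of -2.98 and numbers 5 and 6 one of -0.37, the last with a standard error of 0.34 from the spread within pairs. In samples 5 and 6 the fall was 1.29-fold, and 33.9% of all features had a lower difference there.

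The direction of AT1G02020 in samples 5 and 6 depended on the scale. In intensities as deposited, control 5 and 6 were at 0.462 and 0.349 and recovery 5 and 6 at 0.575 and 0.604. These recovery values were higher, a log2 difference of 0.55, while the median of all features in that pair was 0.90 on that scale. On the deposited scale AT1G02020 was lower in recovery for 4 of 6 replicate numbers, and the other 4 genes for 6 of 6. The share of all features lower for 6 of 6 on that scale was not computed. Its call by limma did not hold under a block for replicate number (adjusted p = 0.0732), on the deposited scale (0.183), under cyclic loess (0.0584) or without samples 3 and 4 of both groups (0.0847, log2 difference -1.19). It was also lost when any 1 of control 1, 2, 3 or 4 or of recovery 1, 2, 3 or 5 was left out, with adjusted p of 0.0507 to 0.0692 and log2 differences of -1.90 to -1.68.

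**Figure D2:**
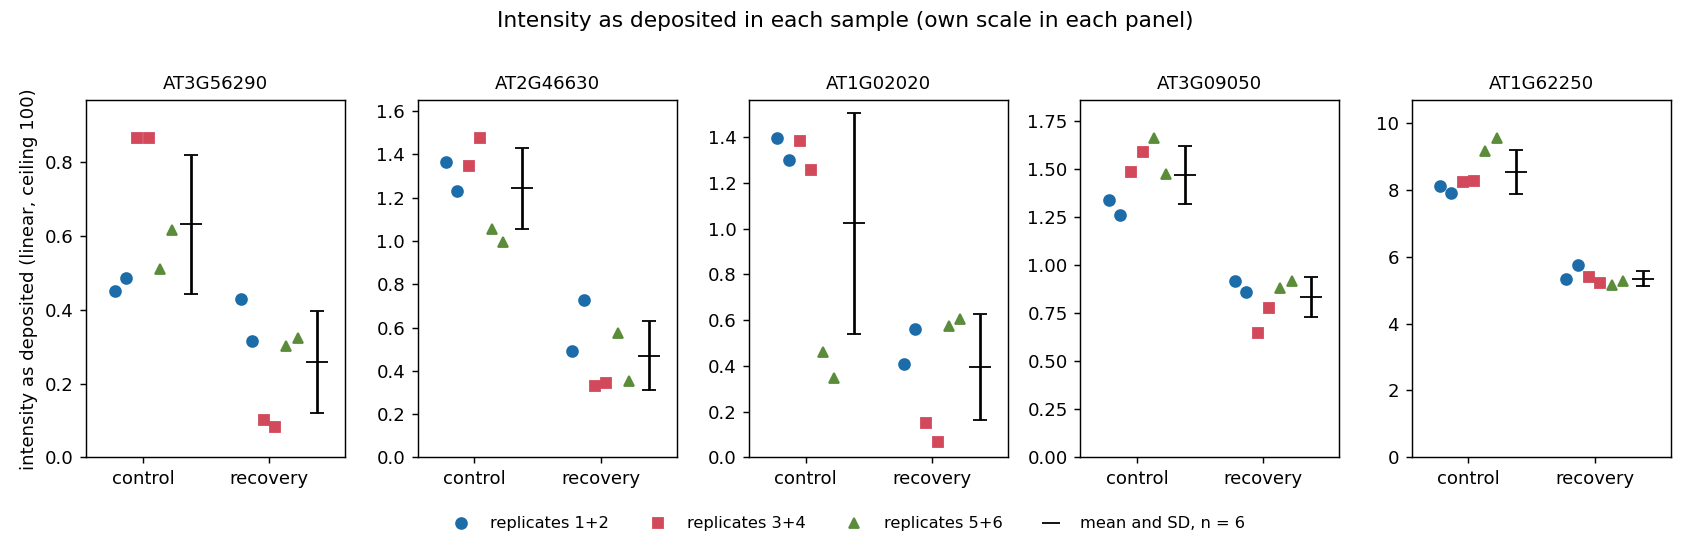
Intensity as deposited, on a linear scale starting at 0, for each of the 5 genes in every sample. Points are samples by pair of replicate numbers, and bars are the mean and SD of 6 samples. The groups overlap for AT1G02020, where control 5 and 6 (0.462 and 0.349) lie among the recovery samples, and are separate for the other 4 genes. The share of all features with separate groups on this scale was not computed.

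AT3G09050 had a smaller and more even fall. Control values ran from 0.25 to 0.97 with a median of 0.57, and recovery values from -0.61 to -0.18 with a median of -0.43. The means were 0.59 ± 0.28 and -0.42 ± 0.14 (SD, n = 6 each), a log2 difference of -1.004 with a standard error of 0.17. Control samples 5 and 6 (0.97 and 0.84) were the highest and control 1 and 2 (0.31 and 0.25) the lowest, so the pairs separated in control plants more than in recovery plants. The fall was nearly equal in numbers 1 and 2 (-0.82) and 3 and 4 (-0.84) and larger in 5 and 6 (-1.35). Samples of a pair differed by 0.18 at most. The limma call held under the replicate block (adjusted p = 0.0342) and was lost with pairs as a random block (0.100034). Recovery 3 and 4 were the highest recovery samples for AT3G09050, at -0.36 and -0.18, whereas for AT3G56290 and AT1G02020 recovery 4 was the lowest.

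AT1G62250 had the smallest fall and the narrowest spread. Control values ran from 2.95 to 3.20 with a median of 3.01, and recovery values from 2.34 to 2.66 with a median of 2.42. The means were 3.05 ± 0.10 and 2.45 ± 0.12 (SD, n = 6 each), a log2 difference of -0.60 with a standard error of 0.14. By pair, numbers 1 and 2 gave a difference of -0.42, numbers 3 and 4 one of -0.63 and numbers 5 and 6 one of -0.76. A fall of this size was common among all features. In the 3 pairs 20.9% to 31.2% of all features had a lower difference than AT1G62250. In intensities as deposited the mean was 8.53 ± 0.65 in control and 5.34 ± 0.21 in recovery samples (SD, n = 6 each), and no recovery sample was above 5.74 or control sample below 7.89.

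Its probe was among the brightest on the array, and the scaling bore on the size of the fall. Among the 172 features with the highest mean, the top 5%, the median log2 difference was 0.08 under quantile normalisation and -0.52 after median centring, where AT1G62250 had -1.23. On the deposited scale it had -0.67 and under cyclic loess -0.68. The limma call did not hold under a block for replicate number (adjusted p = 0.0667), after median centring (0.0613), under cyclic loess (0.0915), with a pseudocount of 0.05 (0.0585) or without dim features (0.110). Leaving out any 1 sample other than control 4 also lost it, with adjusted p of 0.0534 to 0.0844 and log2 differences of -0.65 to -0.57. Among named genes that were lower, AT1G62250 had an adjusted p of 0.0366. AT1G19870 was just inside the threshold, at 0.0483 with a log2 difference of -1.52. AT1G72890 was just outside, at 0.0530 with -0.97.

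How the fall varied between the pairs of samples was compared in a limma fit with a mean for each group in each pair, using the F-test for a pair-dependent difference. It was called for 2 of the 5 genes, AT3G56290 (adjusted p = 0.0178) and AT1G02020 (adjusted p = 0.0165), and for 24.9% of all features. The widest and narrowest fall were 1.54 apart in AT3G56290 and 2.61 in AT1G02020. AT2G46630 (0.51 apart, adjusted p = 0.604), AT3G09050 (0.53, 0.138) and AT1G62250 (0.34, 0.390) did not pass in that limma fit, and after median centring AT3G09050 (0.0476) and AT1G62250 (0.00468) did. The residual of the fit is the spread within pairs, so a difference between pairs in plants, RNA or arrays counts as well as one in the response, and these cannot be told apart. Choosing the genes over all 12 samples also favours falls that are alike across pairs.

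The 5 other named genes that fell served for comparison by pair. AT2G36480 had a log2 difference of -3.95 for numbers 1 and 2 and of -4.24 for numbers 5 and 6, but of -0.90 for numbers 3 and 4. AT-HF (AT4G26900), an enzyme of histidine synthesis, had -3.11, -2.59 and, in samples 3 and 4, -0.10. AT3G56290 and AT1G02020 went the other way and fell most in samples 3 and 4. The remaining 3 were CUTA (AT2G33740), which codes for a chloroplast protein that binds copper, with -0.46, -0.68 and -0.81 in order of the numbers, iqd32 (AT1G19870), of a calmodulin-binding family, with -0.79, -1.77 and -2.001, and AT5G10920 with -1.56, -0.53 and -1.53.

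Recovery 3 and 4, which over all features correlated more with control samples, had levels on the recovery side for the 5 little-characterised genes. All 10 of their values in these samples were nearer to the mean of the other 4 recovery samples than to that of the other 4 control samples. Among the 5 other named genes that fell, 8 of 10 values were, the exceptions being both values of AT-HF (-1.04 and -0.84, against -2.94 in the other recovery samples). In control 3 and 4, 10 of 10 values of the 5 genes were nearer to the other controls, and 8 of 10 of the comparison genes. The genes were chosen with these samples included, so the counts are a description. For the 5 genes every recovery sample lay below every control sample, which largely fixes their counts. The share over all features was not computed. Across all features the recovery minus control difference in samples 3 and 4 correlated at -0.03 and -0.01 with that in the other pairs, which correlated at 0.50 with each other.

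**Figure D3:**
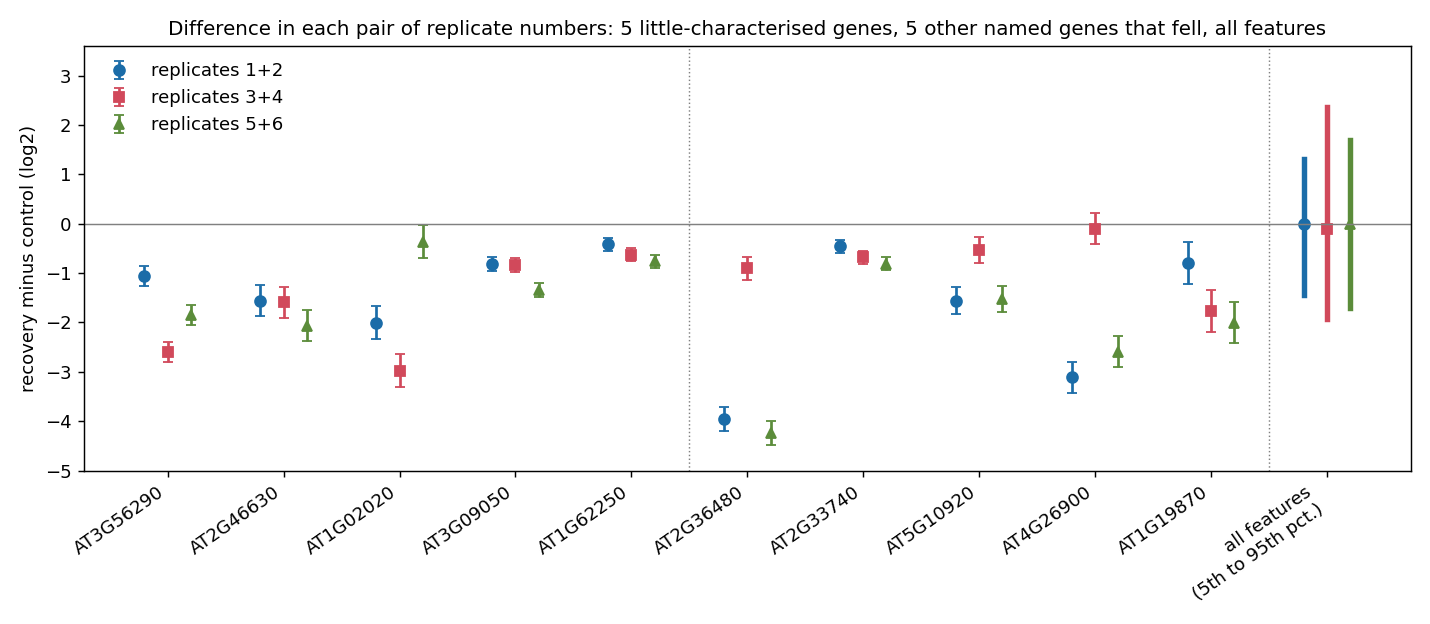
Recovery minus control difference (log2) in each pair of replicate numbers for the 5 little-characterised genes, the 5 other named genes that fell, and all 3438 features. Points are pair differences, bars on genes are standard errors from the spread within pairs, and bars on all features run from the 5th to the 95th percentile around the median. AT3G56290 and AT1G02020 fell most in samples 3 and 4 (-2.60 and -2.98), where AT2G36480 (-0.90) and AT4G26900 (-0.10) fell least.

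The 5 genes shared the step between the groups, while the samples that were high or low within a group differed from gene to gene. Over the levels in the 12 samples the 10 correlations between them ran from 0.60 to 0.91 with a median of 0.88, which the shared fall brings about. Over the deviations of samples from their group means they ran from -0.75 to 0.26 with a median of 0.09, and 4 of 10 were below 0. The lowest was that of AT1G02020 with AT3G09050. In control 5 and 6 AT1G02020 had its lowest control values and AT3G09050 its highest, and in recovery 3 and 4 again AT1G02020 had its lowest recovery values and AT3G09050 its highest. These correlations are over 12 samples that were alike within pairs, and no p is given.

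**Figure D4:**
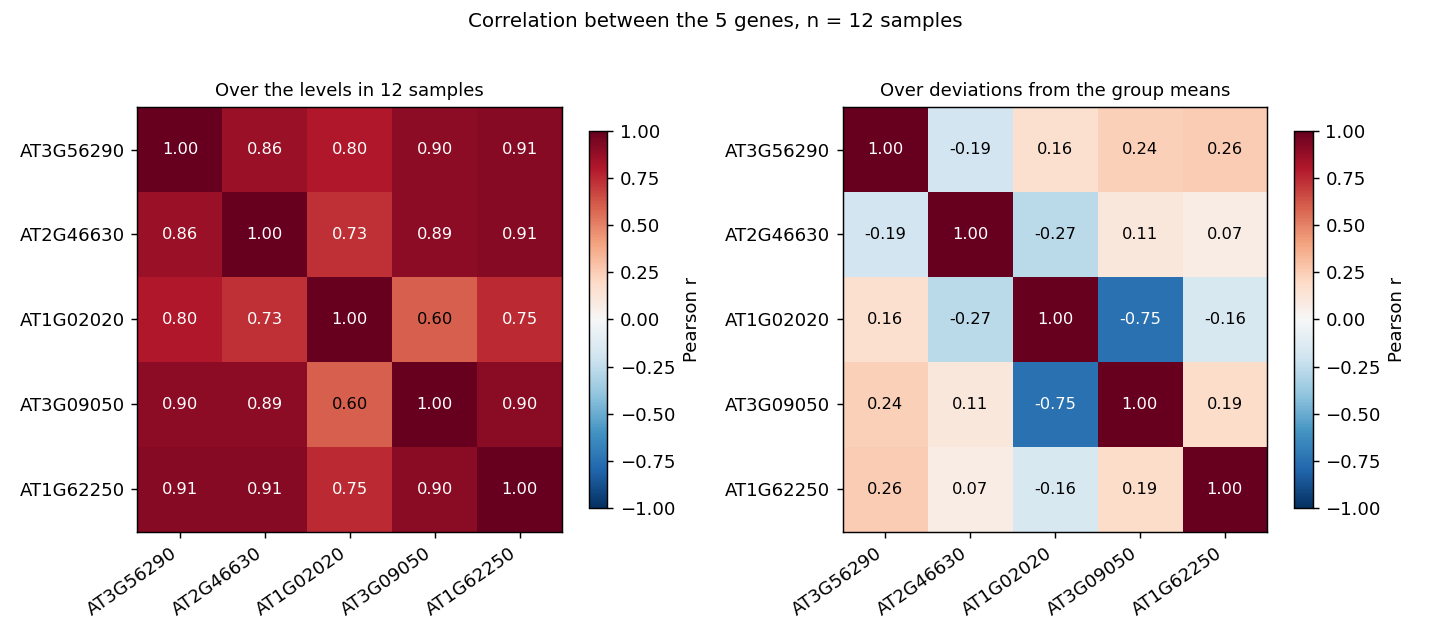
Pearson correlations between the 5 genes over the 12 samples, from the levels (left) and from the deviations of each sample from its group mean (right), on a colour scale from -1 to 1. The left values lie between 0.60 and 0.91, and the right values between -0.75 for AT1G02020 with AT3G09050 and 0.26 for AT3G56290 with AT1G62250.

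The genes with the most similar pattern were sought among 416 other genes with a probe of their own and no value at the floor, by Pearson correlation over the 12 samples. AT1G62250 was matched most closely by CUTA, at 0.98, and next by iqd32, at 0.87. CUTA was also its nearest gene by deviations from the group means, at 0.84. The control values of CUTA ran from 2.72 to 2.87 and its recovery values from 2.01 to 2.42, and both genes had their highest recovery value in recovery 2. The correlation of AT1G62250 with CUTA was 0.97 on the deposited scale and under cyclic loess, and 0.99 after median centring. Of the other bright features 10 correlated with AT1G62250 above 0.9 under quantile normalisation, 11 on the deposited scale and 13 under cyclic loess. After median centring 41 did, so the count differed mainly under that scaling.

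For AT3G56290 the nearest genes were CUTA (0.90) and AT2G40980 (0.89), for AT2G46630 CUTA (0.91) and AT2G36480 (0.89), and for AT3G09050 AT2G36480 (0.90) and AT4G03150 (0.88). AT1G02020 had its nearest genes at lower values, AT2G41950 (0.82) and AT4G14050 (0.81). By deviations from the group means the nearest were AT4G14050 for AT3G56290 (0.84), AGL103 (AT3G18650) for AT2G46630 (0.82), AT4G29890 for AT1G02020 (0.89) and LrgB (AT1G32080) for AT3G09050 (0.84). CUTA thus headed the level lists of 3 of the 5 genes but, apart from AT1G62250, correlated with AT3G56290 and AT2G46630 at 0.15 and 0.13 by deviations.

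Among 2236 features with no value at the floor, named or not, 3 correlated with AT1G02020 above 0.9 over the 12 levels. The number was 13 for AT3G56290, 15 for AT2G46630, 15 for AT1G62250 and 19 for AT3G09050. AT1G02020 therefore had the fewest features with a like pattern of the 5.

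Other genes without a symbol were set beside the 5. Of the 689 genes with a probe of their own, 597 had no symbol beyond their locus number in the reference table. Of these 597, 7 (1.17%) passed limma's test as lower and 9 (1.51%) as higher, beside 1.83% and 1.19% of all features. Their median log2 difference was 0.00, beside -0.02 for all features. Of the 7, 5 are the genes described here, which were chosen for that call, and 2 are among the other 592. These 2, AT2G36480 and AT5G10920, are also among the 5 other named genes that fell, where named means having a probe of their own. A missing symbol does not show that a gene is little characterised. The count of 2 was 7 under the replicate block, 6 with the higher floor, 28 without replicates 3 and 4, 0 with the random block and 1 to 4 with 1 sample left out. AT2G36480 (-3.03) and AT4G02580 (-1.70, adjusted p = 0.177) had the lowest values of the 592. AT5G58330 had the highest (2.31), followed by AT4G31930 (2.27, adjusted p = 0.232). Of the genes with a symbol, 3 of 92 were lower and 2 higher.

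Genes next to the 5 on the chromosome gave few values. Within 4 protein-coding genes on either side (order from TAIR10.1), 3 neighbours were measured by their own probe, and none passed limma's test. AT3G56250 and AT3G56330, around AT3G56290, had log2 differences of -0.27 ± 0.57 and 1.17 ± 0.67 (SE), with 2 and 1 of 12 values at the floor. AT3G09080, near AT3G09050, had 0.31 ± 0.23 (SE). AT2G46630, AT1G02020 and AT1G62250 had no such neighbour.

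Of the gene lists set beside the 5 genes, clock genes had 1 of 18 members measured, CCL (AT3G26740), a clock-controlled transcript, which was higher in recovery by 1.89 with a standard error of 0.23 (limma adjusted p = 0.0030). The photosynthetic tissue list had 4 of 7 measured, 0 of which passed in either direction, with a median log2 difference of 0.04. Its lowest member was PRK, the phosphoribulokinase of carbon fixation, at -0.67 (limma adjusted p = 0.0963). None of the genes listed for dark and sugar starvation, high light, pyrimidine synthesis or biotin synthesis had a probe of its own.

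The direction of the fall over all 12 samples held for all 5 genes under each processing that was run, while the calls did not. Blocking, averaging pairs, the trended and robust eBayes fit, the dim-feature filter and the higher floor left the differences as reported. Only the alternatives that changed the normalisation, added a pseudocount or left out samples could alter the direction. The genes were also chosen for this fall. With the replicate number as a block, 3 of 5 kept an adjusted p under 0.05 in limma, AT2G46630, AT3G56290 (0.0317) and AT3G09050, where 1.72% of all features were called lower. With each group's pairs as a random block none of the 5 did, with adjusted p from 0.0501 for AT3G56290 to 0.232 for AT1G62250. With the pairs averaged none did either, and limma then called 0 of 3438 features, with 203 at an unadjusted p under 0.05.

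**Figure D5:**
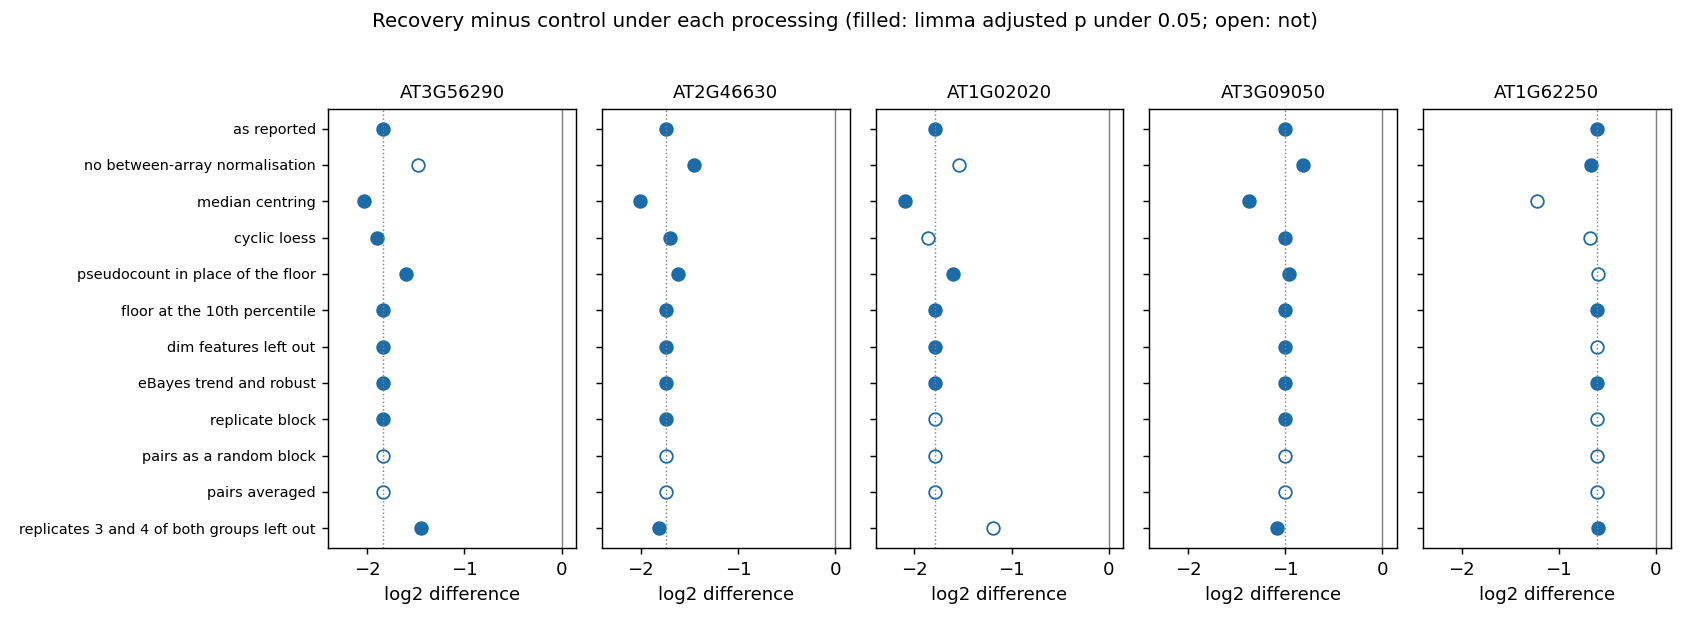
Recovery minus control log2 difference of each of the 5 genes under the reported processing and 11 alternatives. Filled points have a limma adjusted p under 0.05 and open points do not, and the dotted line marks the reported value. All points lie below 0, the lowest at -2.10 for AT1G02020 and the highest at -0.59 for AT1G62250. In both fits that treat pairs as units all points are open. Settings that change only the test or the feature set, or raise the floor, have their points on the dotted line.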

How the data were processed

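The deposited table holds 1 linear intensity per probe and sample, from 0 to 100. How the authors scanned, background-corrected or scaled the intensities is not given in the sources used here. Groups and replicate numbers come from the sample titles. The platform annotation gave 1 gene for 692 of 3439 probes, several for 870 and no name for 1877. RefSeq (TAIR10.1) held the gene number of 690 of the 692. Each sample had 171 to 383 values at 0, up to 7 at the ceiling and a median of 0.196 to 0.458. The number of samples limits the precision.

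Intensities were quantile-normalised, values under the 5th percentile of positive values (0.0298) set to it, and log2 taken. The 2 probes of a gene were averaged, leaving 3438 features. Fits used limma 3.58.1 (lmFit, eBayes) in R 4.3.3, two-sided, with Benjamini-Hochberg adjustment over all features and a threshold of 0.05. Every adjusted p comes from limma. The fits were run on simulated data, with independent noise and with noise shared within pairs. A limit on false calls was set only for independent noise. These runs therefore do not show that the reported fit holds for samples alike within pairs. Alternatives changed the normalisation, the floor, the filter, the pairing and the samples.

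Deviations from group means correlated across groups at 0.110 to 0.462 for equal numbers and at -0.229 to 0.008 for numbers of other pairs. Equal numbers were thus more alike across groups than numbers of other pairs. Neighbouring numbers were not compared across groups, so whether single numbers or only the pairs match was not tested. The reported fit has no block, and blocking on number is an alternative, given where it changes a call. The genes and lists were chosen with earlier results of these data known. Named besides the 5 genes were those with the highest correlation to each (2 by levels, 1 by deviations), the 5 other named genes that fell, up to 4 per list, and the extremes among genes without a symbol. That class was defined by the missing symbol, because the tables used here hold no gene descriptions. Promoter motifs were not analysed here.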

Additional observations from a re-analysis of the deposited data

How the results depend on the processing

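Across the 11 alternatives other than leaving out 1 sample, the log2 difference of AT3G56290 ran from -2.03 to -1.45, of AT2G46630 from -2.01 to -1.46, of AT1G02020 from -2.10 to -1.19, of AT3G09050 from -1.38 to -0.82 and of AT1G62250 from -1.23 to -0.59, with no change of sign. Alternatives that change only the test or the feature set, or raise the floor, left the differences as reported. AT2G46630 and AT3G09050 kept their limma call in 9 of 11, AT3G56290 in 8, AT1G02020 in 5 and AT1G62250 in 4. With pairs as a random block (correlation 0.663) or averaged, the differences stayed at -1.83, -1.74, -1.78, -1.004 and -0.60, as under the replicate block, and all calls were lost. Under the replicate block those of AT1G02020 and AT1G62250 were lost and no other call of the 5 changed. Calls were also lost on the deposited scale for AT3G56290 (-1.48) and AT1G02020 (-1.54), under cyclic loess for AT1G02020 (-1.86) and AT1G62250 (-0.68), and for AT1G62250 after median centring (-1.23), with the pseudocount (-0.60) and without dim features (-0.60). Without replicates 3 and 4 AT1G02020 (-1.19) was lost. With 1 sample left out, AT1G02020 ran from -1.98 to -1.54 and AT1G62250 from -0.65 to -0.57, AT3G56290 from -1.95 to -1.74, AT2G46630 from -1.82 to -1.60 and AT3G09050 from -1.07 to -0.93. The last 3 kept their calls.

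Called features numbered 104, and 65 after median centring, 60 under cyclic loess, 69 without dim features (3206 tested), 3 with the random block, 0 with averaged pairs and 416 without replicates 3 and 4. They ranged from 42 (without recovery 5) to 93 with 1 sample left out. The F-test between pairs called 857 features, and 1471 on the deposited scale. The 2 lower calls among other genes without a symbol became 1 on the deposited scale, 4 after median centring, 6 with the higher floor, 7 under the replicate block, 0 with the random block or averaged pairs, 28 without replicates 3 and 4, and 1 to 4 with 1 sample left out. The alternatives for that class, for single F-tests, for the other named genes and for the correlations were added after seeing the data. The median correlation between the 5 genes stayed between 0.82 and 0.89. The cause of these changes was not tested.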

Other observations

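In each group of 6 samples the highest and lowest sample of each of the 5 genes was compared with its nearest neighbour, taking the gap relative to the whole range of the group. None of 10 groups passed Dixon's critical value. The comparison takes samples as independent and the gap to the nearest sample. It could therefore hardly flag 2 samples of a pair that lay apart together. For AT1G02020 control 6 (-1.02) had a gap of 0.237 of the range, to its partner control 5 (-0.67), while the other controls lay higher. The widest gap was that of recovery 4 for AT1G02020 (-3.06 against -2.09, or 0.512 of the range).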
